A study of Mus musculus with 4 samples.

Results

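The nuclear-encoded genes of oxidative phosphorylation were followed in 3T3-L1 preadipocytes after 24 h with 25 µM Nutlin-3a or with its vehicle. Members were chosen by gene symbol: all symbols beginning with Nduf, Uqcr, Atp5 or Cox and a digit, the 4 Sdh subunit genes, Cyc1 and Cycs. This gave 101 of the 16709 symbols in the authors' deposited table. They comprised 76 structural subunits (cytochrome c among them), 18 assembly factors, 6 tissue- or condition-linked isoforms of complex IV and Atp5s. The rule reads symbols and no measured value.

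3T3-L1 is a clonal mouse fibroblast line that can be turned into adipocytes, sampled here in growth medium with serum. DMSO cells received the vehicle in the amount used for Nutlin-3a. Nutlin-3a is a small molecule that keeps MDM2, a ubiquitin ligase, from binding p53. RNA was sequenced from 2 biological replicates per treatment, but the table holds 1 FPKM value per transcript and treatment (fragments scaled by transcript length and by sequencing depth). No spread between replicates can therefore be given and no test was possible, and higher and lower compare just the 2 group values. In pairs of values below, the Nutlin-3a value stands first. Cdkn1a, a p53 target, was listed at 386 FPKM with Nutlin-3a and 35.2 with DMSO. Mdm2, the compound's target and another p53 target, went the opposite way: both of its transcripts had a 0 with Nutlin-3a and together 773 FPKM with DMSO, and whether that 0 is a true level or a failed estimate was not tested. Trp53, which encodes p53, was listed at 63.1 against 54.5 FPKM. All 8 preadipocyte markers had a value above 0 in both groups, Cd34 only barely, and their sum was 895 FPKM with Nutlin-3a and 1337 with DMSO. Of the 7 preadipocyte markers compared, 4 were at least 2-fold lower with Nutlin-3a, beside 6.14% of all genes compared. Markers of mature adipocytes summed to 9.67 and 42.1 FPKM, nearly all of it Fabp4, while Plin1 and Lep were listed at 0 with DMSO. The sums for macrophages (7.38 and 3.46 FPKM), muscle (3.62 and 0.368), endothelium (1.62 and 0.026) and epithelium (0.472 and 0.139) were low and higher with Nutlin-3a. Among the genes of these lists Ptprc, Kdr, Myod1, Myog and Epcam were listed at 0 with DMSO and below 0.1 FPKM with Nutlin-3a. Others stood higher with Nutlin-3a: Cd68 (6.52 against 2.91 FPKM), Acta1 (1.74 against 0.368), Pecam1 (1.57 against 0.026) and Csf1r (0.801 against 0.549). Ckm and Actc1 were listed at 0.906 and 0.863 FPKM with Nutlin-3a and at 0 with DMSO. Adgre1, Cdh5 and Myh6 were not analysed here. The part of these markers in the results was not tested.

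Oxidative phosphorylation takes place in the inner mitochondrial membrane. Complexes I and II pass electrons from NADH and succinate to ubiquinone, complex III passes them to cytochrome c, complex IV passes them to oxygen, and complex V, the ATP synthase, uses the proton gradient that complexes I, III and IV build up. The subunits come from both the nuclear and the mitochondrial genome, and assembly factors join them without staying in the finished enzyme. p53 is known to act on mitochondria in several ways, among them through Sco2, a complex IV assembly factor.

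The promoters of Cycs, Ndufa10, Ndufb6 and Cox20 are shown because these were the members with at least a 2-fold difference, and that of Ndufa11 as an example of a further member with the motif that Cycs and Ndufa10 share. Uqcrfs1 and Ndufb2 hold it too and are not shown; Ndufa11 was picked after its values were seen and has the largest ratio of the 3. The windows run from 250 bases before to 50 bases after the RefSeq start (GRCm38.p6, the assembly of mm10), 5′ to 3′ on the gene's own strand. They are Cycs (chr6:50566520-50566819, minus strand), Ndufa10 (chr1:92473709-92474008, minus strand), Ndufb6 (chr4:40279372-40279671, minus strand), Cox20 (chr1:178318903-178319202, plus strand) and Ndufa11 (chr17:56717512-56717811, plus strand). Capitals mark matches, on either strand, to 4 motifs of factors known to bind promoters of respiratory genes: the NRF1 consensus, CCGGAAG (GABPA), AAGATGGCG (YY1) and TGACGTCA (CREB family). No matches overlapped in these windows.
Cycs: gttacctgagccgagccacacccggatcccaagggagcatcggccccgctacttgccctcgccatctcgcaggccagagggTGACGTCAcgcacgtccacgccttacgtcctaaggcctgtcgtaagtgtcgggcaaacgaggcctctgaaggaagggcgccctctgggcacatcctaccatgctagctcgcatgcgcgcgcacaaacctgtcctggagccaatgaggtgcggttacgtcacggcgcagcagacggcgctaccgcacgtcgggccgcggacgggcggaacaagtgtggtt
Ndufa10: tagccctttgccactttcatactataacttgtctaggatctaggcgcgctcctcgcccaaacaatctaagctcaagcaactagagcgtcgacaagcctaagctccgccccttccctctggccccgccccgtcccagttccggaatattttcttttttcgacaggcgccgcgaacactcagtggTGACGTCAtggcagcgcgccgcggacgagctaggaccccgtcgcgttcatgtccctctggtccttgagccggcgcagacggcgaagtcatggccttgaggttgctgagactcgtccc
Ndufb6: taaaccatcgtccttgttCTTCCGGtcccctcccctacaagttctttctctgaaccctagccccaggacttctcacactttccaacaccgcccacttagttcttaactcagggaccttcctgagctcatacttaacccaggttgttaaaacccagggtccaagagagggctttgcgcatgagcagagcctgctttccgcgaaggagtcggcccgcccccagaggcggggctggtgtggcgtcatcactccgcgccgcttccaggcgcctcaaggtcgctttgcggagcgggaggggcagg
Cox20: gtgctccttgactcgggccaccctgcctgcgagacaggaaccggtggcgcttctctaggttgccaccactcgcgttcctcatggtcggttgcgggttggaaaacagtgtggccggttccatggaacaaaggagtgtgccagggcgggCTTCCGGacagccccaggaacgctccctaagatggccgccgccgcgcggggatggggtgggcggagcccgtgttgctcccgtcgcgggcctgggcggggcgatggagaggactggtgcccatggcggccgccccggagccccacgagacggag
Ndufa11: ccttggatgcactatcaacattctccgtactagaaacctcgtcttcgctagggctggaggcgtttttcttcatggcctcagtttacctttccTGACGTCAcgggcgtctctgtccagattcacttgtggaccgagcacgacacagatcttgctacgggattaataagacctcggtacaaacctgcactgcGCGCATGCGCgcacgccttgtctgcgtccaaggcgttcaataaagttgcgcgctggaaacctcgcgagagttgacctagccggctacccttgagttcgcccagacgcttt

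TGACGTCA began at position -169 from the start in Cycs, -67 in Ndufa10 and -158 in Ndufa11, and the NRF1 motif began at -60 in Ndufa11. Ndufb6 held CCGGAAG at -232 and Cox20 at -103, both on the opposite strand. Promoter windows were found for 80 of the 101 members. TGACGTCA stood in 5 of them (6.25%) and in 2.03% of all 27025 genes with a window. Those 5 genes were Cycs (log2 ratio 1.33), Ndufa10 (1.15), Ndufa11 (0.53), Uqcrfs1 (0.40) and Ndufb2 (0.18), all with the higher value in Nutlin-3a. Across all 296 compared genes with the motif the median was 0.10, beside 0.07 for the 7666 without it. The higher value was in Nutlin-3a for 58.4% of those 296 and for 54.9% of those without the motif. The NRF1 motif stood in 19 of the 80 (23.8%, against 5.19% of all genes). The GABPA motif stood in 22 (27.5%, against 9.93%) and the YY1 motif in 8 (10.0%, against 1.64%). This background includes genes not compared here, and each motif's excess was smaller among compared genes. NRF1 stood in 19 compared members and not in 58, and in 1006 compared genes with a window and not in 6956. For GABPA these counts were 21 and 56, and 1760 and 6202. For YY1 they were 8 and 69, and 324 and 7638. For the CREB family they were 5 and 72, and 296 and 7666. The median log2 ratio of members with and without a motif was 0.12 and 0.07 for NRF1, 0.05 and 0.11 for GABPA, -0.17 and 0.13 for YY1, and 0.53 and 0.03 for the CREB family. The CREB family motif is described by gene because of these medians, so it was singled out after its values were seen. The p53 consensus, also searched, stood in none of the 80 windows and in 20 of the 27025. A match is a run of letters only, and no binding was measured.

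Most members differed little between the treatments. Log2 ratios are Nutlin-3a over DMSO on the log2(FPKM + 1) scale, and a gene was compared at a mean of at least 1 FPKM with both values above 0. Among the 96 members that could be compared, 3 were higher with Nutlin-3a by 2-fold or more and 1 was lower by as much. Over all 10331 genes compared these shares were 6.62% and 6.14%, so with 1 added the members' counts lay below the background in both directions. With 5 added the members' counts stayed at 3 and 1 while both background shares fell. The share at least 2-fold higher was then larger among members than among all genes. The median level in DMSO was 279 FPKM for members and 8.76 for all genes. At 1.5-fold, with 1 added, the members' counts were 6 higher and 12 lower, beside 17.8% and 15.2% of all genes. The members' median log2 ratio was 0.07, as was that of all genes (0.07). Their sum was 50606 FPKM with Nutlin-3a and 48122 with DMSO, 5.23% and 4.91% of all FPKM. At least 1 annotated pseudogene matched 80% or more of the reading frame at 90% identity or more for 30 of the 101 members, whose values are uncertain; their median log2 ratio was 0.13, and that of the 66 other members compared was 0.05. The table lists 15 members, some of them among those 30, with the same interval as another symbol: Atp5d, Atp5f1, Atp5j, Cox4i2, Cox6a2, Cox11, Cox15, Cox16, Ndufa2, Ndufa4l2, Ndufa13, Ndufb11, Ndufs1, Ndufs7 and Uqcrc2. Their values are uncertain too. In such bulk samples fewer cells of a type and less RNA per cell cannot be told apart.

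**Figure D1:**
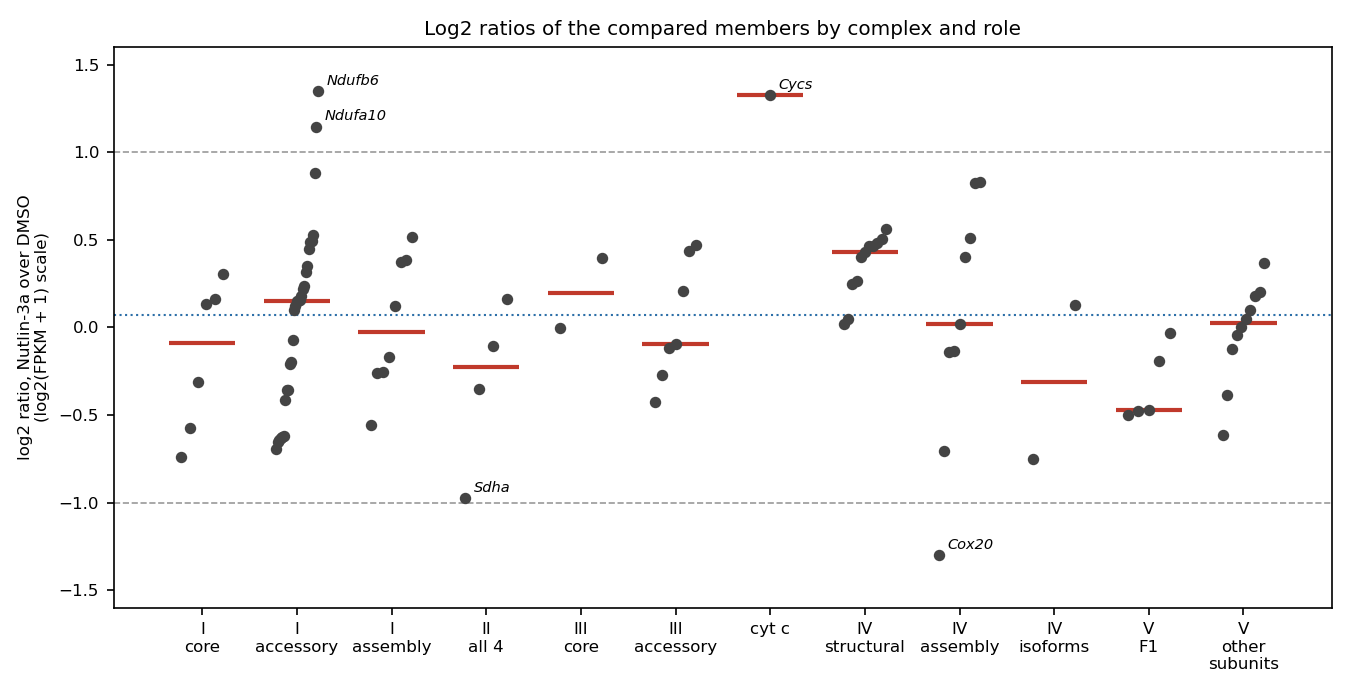
Log2 ratios (y axis, Nutlin-3a over DMSO, log2(FPKM + 1) scale) of the compared members reported here except Atp5s, by complex and role (x axis). Points are genes, red bars medians, the dotted line the median of all genes (0.07) and dashed lines the 2-fold limit; the structural subunits of complex IV lie between 0.02 and 0.56, and the F1 subunits of complex V between -0.50 and -0.03.

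Cytochrome c, the mobile carrier between complexes III and IV, was among the 3 higher members. Cycs was listed at 78.0 FPKM with Nutlin-3a and 30.5 with DMSO, 2.56-fold higher (log2 ratio 1.33). The gene lies on chromosome 6 from 50562563 to 50566474 (mm10, whole gene as listed). Its value is uncertain, because 8 annotated pseudogenes match it at that similarity, and how shared reads were assigned is not given in the sources used here. Cycs is also known to leave mitochondria in apoptosis as a protein, which transcript levels do not show. Cyc1, cytochrome c1 of complex III and the donor of its electrons, was nearly level at 74.7 against 74.9 FPKM.

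Complex I, the NADH dehydrogenase of the chain, had the other 2 higher members. Ndufb6, an accessory subunit of the membrane arm, was listed at 883 FPKM with Nutlin-3a and 347 with DMSO (2.55-fold higher, log2 ratio 1.35). Ndufa10, an accessory subunit with a nucleoside kinase fold, was listed at 54.8 and 24.2 FPKM (2.26-fold higher, log2 ratio 1.15). Neither has an annotated pseudogene at that similarity. Ndufb6 lies on chromosome 4 from 40270663 to 40279368 and Ndufa10 on chromosome 1 from 92439719 to 92473758 (mm10, whole genes as listed). Ndufa1, a small membrane-arm subunit, came next with 815 against 442 FPKM (1.84-fold), inside the 2-fold limit.

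The flavin and the iron-sulfur clusters of complex I sit in some of its core subunits. The core subunits described here lay within 2-fold, on both sides of 0. Ndufs7, which carries the cluster next to ubiquinone, was listed at 235 against 394 FPKM (1.67-fold lower). Ndufs8, another iron-sulfur subunit, was listed at 172 against 256 FPKM (1.49-fold lower). Ndufs3, a core subunit of the arm that leads to ubiquinone, was listed at 209 against 259.8 FPKM (1.24-fold lower). The core subunits of the NADH-oxidizing tip went the other way by small amounts. Ndufv1, the flavoprotein that binds NADH, was listed at 133 against 107 FPKM, Ndufv2 at 124 against 114 FPKM, and Ndufs1 at 17.9 against 15.9 FPKM.

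The 29 accessory subunits of complex I spread widely, from -0.70 to 1.35, with a median of 0.15. Their sum went the other way, with 13134 FPKM with Nutlin-3a and 13936 with DMSO. A set of 6 lay close together at the lower end, between -0.70 and -0.62: Ndufb10 (397 against 644 FPKM), Ndufv3 (431 against 679), Ndufa6 (544 against 850.3), Ndufc1 (261 against 405), Ndufa7 (633 against 975) and Ndufa13 (378 against 582). They are named after their values were seen. They do not stand apart in the complex, since the core subunits Ndufs7 (-0.74) and Ndufs8 (-0.57) lay on either side of them. The next accessory subunit was Ndufa2, with 1120.2 against 1492 FPKM and a log2 ratio of -0.41. Ndufa2 had the highest mean level of the complex. The lowest among structural subunits was that of Ndufs1, so transcripts of a single complex ranged from 15.9 to 1492 FPKM in DMSO, although its subunits are present once each in the assembled enzyme, apart from the carrier protein Ndufab1.

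**Figure D2:**
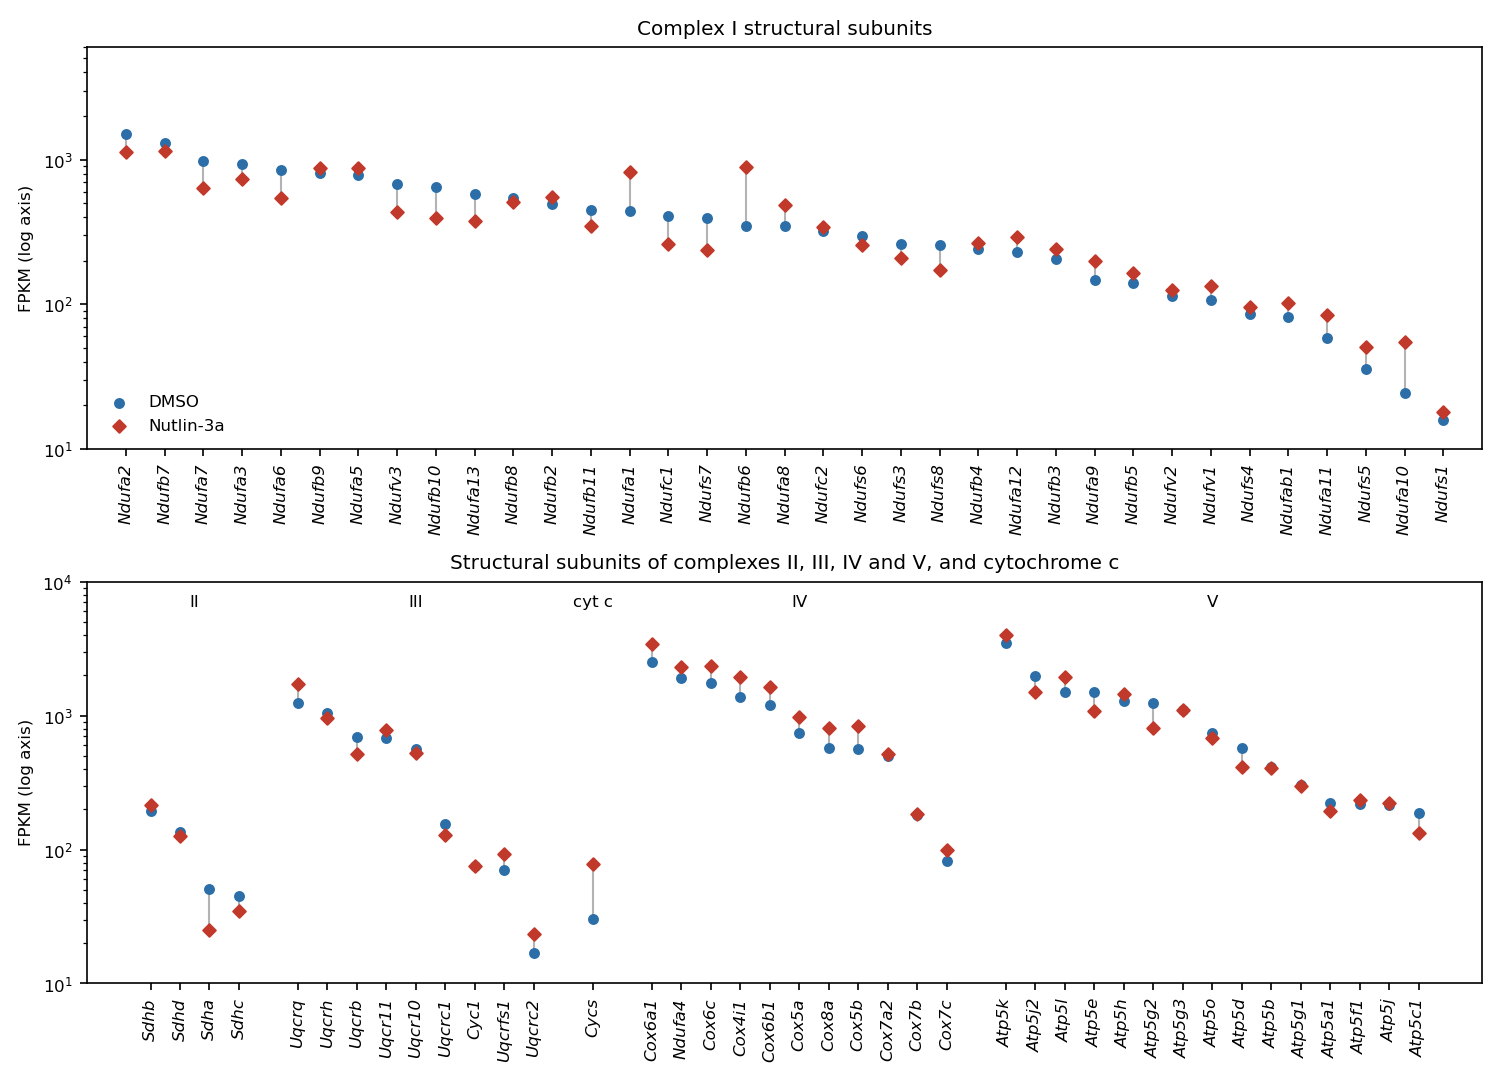
FPKM (log axis) of the structural subunits reported here in DMSO (blue circles) and Nutlin-3a (red diamonds), ordered within each complex by the DMSO value; grey lines join both values of a gene. Complex IV diamonds lie at or above the circles, from Cox7b (185 against 182) to Cox6a1 (3435 against 2493).

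Complex II, succinate dehydrogenase, is encoded by nuclear genes alone and had 3 of 4 subunits lower in Nutlin-3a, beside 45.2% of all genes. Sdha, the flavoprotein that oxidizes succinate, was listed at 25.3 FPKM with Nutlin-3a and 50.7 with DMSO, 2.01-fold lower. Its log2 ratio of -0.98 lay just inside the 2-fold limit, and it passed the limit without a pseudocount, after centring (-1.05) and after the GC correction (-1.02). Sdhb, the iron-sulfur subunit, was listed at 217 against 193 FPKM. The membrane anchors Sdhc and Sdhd were listed at 35.03 against 44.9 FPKM and 126 against 136 FPKM. The flavoprotein and the iron-sulfur subunit of this complex thus stood on opposite sides of 0.

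Complex III showed no member past the limit, and its 9 genes had a log2 ratio between -0.43 and 0.47. Uqcrfs1, the Rieske iron-sulfur protein, was listed at 92.3 against 69.9 FPKM. Uqcrq, a small accessory subunit with the highest level of the complex, was listed at 1724 against 1243 FPKM (1.39-fold higher). Uqcrb, which contacts the ubiquinone site, was listed at 519 against 697 FPKM (1.34-fold lower). The core proteins Uqcrc1 and Uqcrc2 differed in direction, with 128 against 155 FPKM and 23.3 against 17.0 FPKM.

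Complex IV, cytochrome c oxidase, was the complex whose structural subunits had the highest median log2 ratio of complexes I to V. Each of the 11 structural subunits compared had the higher value in Nutlin-3a, against 54.8% of all genes. This count rests on roles assigned by hand. The isoforms Cox7a1 (log2 ratio -0.75) and Cox6a2 (0.12) were compared too and are not among the 11. The median log2 ratio of the 11 was 0.43. None reached 2-fold. Pseudogene copies were found for 5 of the 11 (Cox7b, Ndufa4, Cox5a, Cox6c and Cox6a1). Summed, the 11 came to 15099 FPKM with Nutlin-3a and 11385 with DMSO, 32.6% higher. After centring on the median of all genes 9 of the 11 were above 0, with Cox7b and Cox7a2 just below (-0.05 and -0.03), while correcting for GC content left 10, with Cox7b at -0.13.

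Cox4i1, the nuclear subunit that binds ATP and tunes the enzyme, was listed at 1933 FPKM with Nutlin-3a and 1386 with DMSO (1.39-fold higher). Cox5a and Cox5b, the matrix-side subunits, were listed at 982 against 744 FPKM and 835 against 565 FPKM, and Cox5b had the largest log2 ratio of the 11 (0.56). Cox6a1, the most abundant subunit transcript of the complex, was listed at 3435 against 2493 FPKM. Cox6b1, which faces the intermembrane space, Cox6c and Cox8a were 1.38-fold, 1.35-fold and 1.42-fold higher. Smaller differences were seen for Ndufa4 (2298 against 1917 FPKM), which was named as a complex I subunit and is now counted in complex IV, and for Cox7c (98.5 against 82.7). Cox7a2 (519.5 against 503 FPKM) and Cox7b (185 against 182) were nearly level.

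The alternative isoforms of complex IV were faint beside the common ones in both treatments. Cox7a1 and Cox6a2, the heart and muscle forms, were listed at 1.11 against 2.55 FPKM and 2.14 against 1.88 FPKM. Cox7a1 made up 0.213% of the summed FPKM of Cox7a1 and Cox7a2 in Nutlin-3a and 0.503% in DMSO. Ndufa4l2, a relative of Ndufa4 known for its induction in hypoxia, was listed at 0.364 against 0.237 FPKM, and Cox7b2, a testis form, at 0.274 against 0.244 FPKM. Cox4i2, a form found in lung and linked to oxygen sensing, and Cox6b2, another testis form, were listed at 0 in DMSO and at 0.963 and 0.472 FPKM in Nutlin-3a. No fold is given for those 2, since listed zeros may be estimates that failed. Across the 16709 symbols 2346 had a 0 with DMSO and 466 with Nutlin-3a.

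Complex V is the ATP synthase. The 5 subunits of the F1 head, which makes ATP, all had the lower value in Nutlin-3a, against 45.2% of all genes, with a median log2 ratio of -0.47. Of the other 10 structural subunits, 6 had the higher value and 4 the lower, with a median of 0.03. F1 transcripts summed to 2223 FPKM with Nutlin-3a and 2895 with DMSO, and the other 10 to 12225 and 12035. No member of complex V reached 2-fold. With the correction for GC content the F1 median was -0.24 and 4 of 5 lay below 0, and quantile normalization also left 4 of 5, in both cases with Atp5b, the catalytic beta subunit, above 0 (0.02 and 0.09).

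Atp5c1, the rotating gamma subunit, was listed at 133 against 188 FPKM (1.42-fold lower), Atp5d, the delta subunit, at 412 against 574 FPKM, and Atp5e, the epsilon subunit, at 1080.1 against 1496 FPKM. These 3, which form the central stalk, lay close together, between -0.50 and -0.47. The alpha subunit Atp5a1 was listed at 194 against 222 FPKM, and Atp5b was nearly level at 405 against 414 FPKM. Atp5c1 has 2 pseudogene copies. In the table Atp5d and Ndufs7 share a listed interval of chromosome 10 (79697305 to 80369637, mm10) with many other symbols, though each has its own gene model. Without symbols that share an interval the median of the remaining 4 F1 subunits was -0.33.

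Outside F1, the c-ring genes of complex V had unequal ratios. Atp5g1, Atp5g2 and Atp5g3 encode the same mature c subunit behind different import sequences. Atp5g2 was listed at 806 against 1233 FPKM (1.53-fold lower). Atp5g1, at 296 against 305 FPKM, and Atp5g3, at 1109 against 1106 FPKM, were nearly level. Atp5g2 made up 46.6% of the summed FPKM of the 3 genes with DMSO and 36.5% with Nutlin-3a, and Atp5g3 took the largest share there (50.2%). Of the remaining subunits, Atp5l, which helps join synthase dimers, was listed at 1947 against 1510.5 FPKM, and has 13 pseudogene copies, the most of any member. Atp5h has 5 and Atp5g1 has 4. Atp5j2 was listed at 1504 against 1964 FPKM (1.31-fold lower), and Atp5k, the member with the highest level of all, at 3973 against 3461 FPKM. The stalk subunits Atp5o, Atp5f1, Atp5h and Atp5j had log2 ratios from -0.12 to 0.18. Atp5s, a factor linked to the synthase, was listed at 3.22 against 3.73 FPKM.

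Structural subunits and assembly factors differed in level far more than in ratio. The median level in DMSO was 409.5 FPKM for the 76 structural subunits and 14.8 FPKM for the 17 assembly factors compared. Their median log2 ratios were 0.10 and 0.02. Of the structural subunits 43 had the higher value in Nutlin-3a and 33 the lower, and of the assembly factors 9 and 8. Among all genes compared 54.8% had the higher value in Nutlin-3a, so neither class lay far from the background. Assembly factors of complex IV spread from -1.30 to 0.83, whereas its structural subunits stayed between 0.02 and 0.56.

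**Figure D3:**
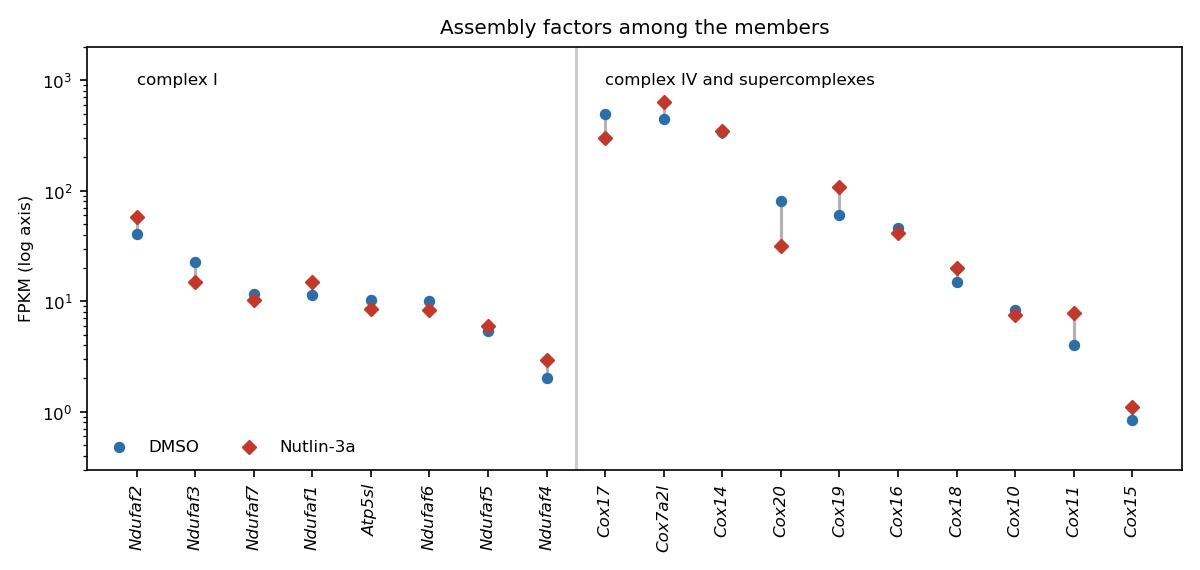
FPKM (log axis) of the 18 assembly factors in DMSO (blue circles) and Nutlin-3a (red diamonds), ordered by complex and DMSO value. Cox20 and Cox17 are lower in Nutlin-3a, and Cox19 and Cox11 higher.

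Cox20, a chaperone of the mitochondrially encoded subunit COX2, was the member at least 2-fold lower on the log2(FPKM + 1) scale. It was listed at 31.9 FPKM with Nutlin-3a and 80.02 with DMSO (2.51-fold lower, log2 ratio -1.30). It lies on chromosome 1 from 178319153 to 178322693 (mm10, whole gene as listed), and 1 annotated pseudogene matches it. On plain FPKM ratios Sdha (2.01-fold) and Cox7a1 (2.30-fold) were also at least 2-fold lower. Cox17, which carries copper to complex IV, was listed at 302 against 494 FPKM (1.64-fold lower). Among the members, Cox11, which serves the copper site of COX1, and Cox19, also a copper-handling factor, had the higher value in Nutlin-3a. Cox11 was listed at 7.89 against 4.01 FPKM (1.97-fold) and Cox19 at 107 against 60.1 FPKM (1.78-fold). Genes of heme A synthesis were weak, with Cox10 at 7.54 against 8.39 FPKM and Cox15 at 1.11 against 0.847 FPKM, and Cox15 was under the minimum mean.

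Cox18, which exports the tail of COX2 across the membrane, was listed at 19.96 against 14.8 FPKM, Cox16, which acts on the same subunit, at 41.4 against 45.7 FPKM, and Cox14, which acts on COX1, at 346 against 342 FPKM. Factors for the COX2 subunit had ratios on both sides of 0. Cox7a2l, a supercomplex factor related to Cox7a2, was listed at 630.4 against 442 FPKM (1.43-fold higher).

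The 8 complex I assembly factors lay within 2-fold, 4 above and 4 below 0. Ndufaf2, a relative of Ndufa12 that acts late in assembly, was listed at 58.5 against 40.7 FPKM, and Ndufaf1, an early membrane-arm factor, at 14.9 against 11.3 FPKM. Ndufaf3, which works with Ndufaf4 on the ubiquinone module, was listed at 15.1 against 22.7 FPKM (1.504-fold lower), while Ndufaf4 was listed at 2.96 against 2.04 FPKM. Ndufaf5, which modifies Ndufs7, and Ndufaf7, a methyltransferase, were listed at 5.92 against 5.37 FPKM and 10.2 against 11.6 FPKM. Ndufaf6 was listed at 8.31 against 10.1 FPKM. Atp5sl, named after the ATP synthase but now counted as a factor of the distal membrane arm of complex I, was listed at 8.49 against 10.4 FPKM.

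Transcripts of a gene could be compared for the 14 members listed with several. In Atp5g1 they crossed, with 1 transcript at 144 FPKM in Nutlin-3a and 107 in DMSO and the other at 151 and 198. Of the 5 transcripts of Atp5j, the F6 stalk subunit, 1 was listed at 6.80 against 1.62 FPKM and 1 at 11.3 against 32.6 FPKM, under a sum that was nearly level. Atp5j shares its listed interval with Gabpa. For Cox18 a transcript at 0.00165 FPKM in DMSO was listed at 3.18 in Nutlin-3a. Both transcripts of Cox4i1 had the higher value in Nutlin-3a (1373 against 912 and 560.1 against 475 FPKM).

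The F1 head and the complex IV subunits also differed in base composition, which moved with the ratio across the whole table. Over 10271 compared genes with a GENCODE transcript, Spearman's rho of the log2 ratio with GC content was -0.23, and over the 96 members it was -0.23 as well. With the DMSO level, which also enters the ratio, rho was -0.26 over all these genes and -0.10 over the members. Over the structural subunits of complex I it was -0.60 with the DMSO level and -0.38 with GC content. Genes share libraries and are not replicates. Among all genes the median log2 ratio went from 0.23 in the lowest of 4 equal bins of GC content to -0.15 in the highest, and among members from 0.16 (18 genes) to -0.20 (21 genes). The median GC content was 49.0% for the structural subunits of complex IV, 54.5% for F1 and 50.4% for all genes. Within complex IV the ends ran the other way. The structural subunits highest in GC content, Cox6a1 (58.8%), Cox8a (58.5%) and Cox4i1 (58.0%), had log2 ratios of 0.46, 0.51 and 0.48. Those lowest in GC content, Cox7c (38.4%), Cox7b (42.0%) and Ndufa4 (44.1%), had 0.25, 0.02 and 0.26. After the correction for GC content the median of the 11 complex IV subunits was 0.37 (0.43 without it) and that of the 5 F1 subunits -0.24 (-0.47 without it). Members were short, with a median transcript of 1003 bases against 2966 for all genes. The part of GC content or of level in the ratios was not tested.

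**Figure D4:**
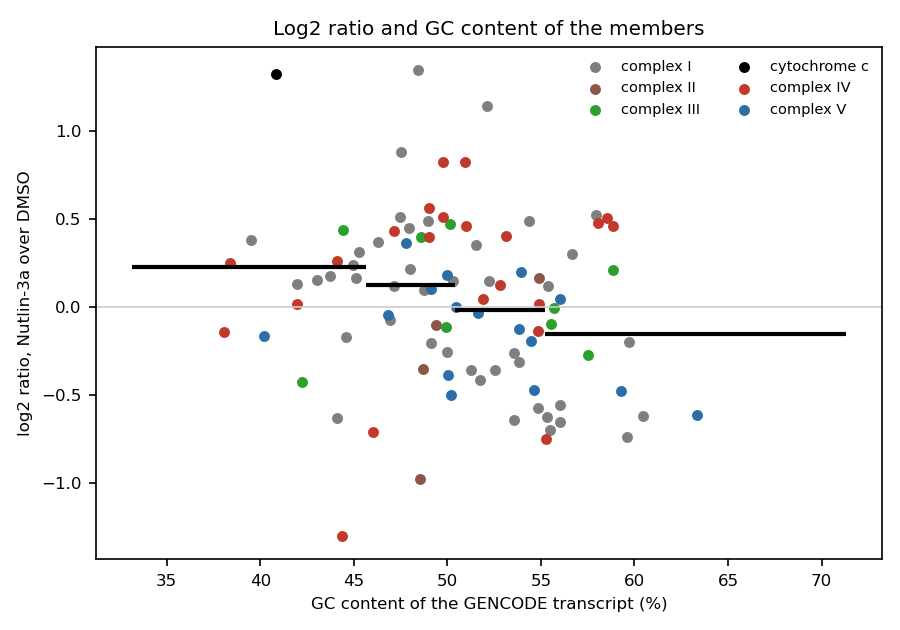
Log2 ratio (y axis, Nutlin-3a over DMSO, log2(FPKM + 1) scale) against the GC content of the GENCODE transcript (x axis, %) for the compared members reported here, coloured by complex. Black bars are the medians of all genes in 4 equal bins of GC content, from 0.23 to -0.15; the members' medians in these bins go from 0.16 to -0.20.

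Genes of the pathway outside the naming rule were followed through lists. Of 37 further assembly factors 34 were listed and 33 compared, 1 at least 2-fold higher and 2 at least 2-fold lower (6.62% and 6.14% of all genes), with a median log2 ratio of 0.17. Sdhaf1, which helps place iron-sulfur clusters in Sdhb, was listed at 77.3 against 25.3 FPKM (3.05-fold higher). Coa3, an early factor for COX1, was listed at 23.1 against 85.6 FPKM (3.70-fold lower), and Uqcc2, a factor for cytochrome b, at 408 against 891 FPKM (2.18-fold lower). Sco2, the copper chaperone known as a p53 target in human cells, was level at 51.0 against 51.3 FPKM. The synthase-associated genes Usmg5 and Atpif1, which inhibits the enzyme, were listed at 1142 against 794 FPKM and 144 against 123 FPKM. The listed interval of Sco2 holds 2 other protein-coding genes whole and that of Usmg5 holds 1, so the values of Sco2 and Usmg5 are uncertain.

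Of 12 regulators of mitochondrial gene expression 10 were compared, with 2 higher by 2-fold or more with Nutlin-3a and none lower by as much, beside 6.62% and 6.14% of all genes. The higher ones were Gabpb1, a partner of the GABPA factor (33.1 against 11.1 FPKM), and Esrra, a nuclear receptor of respiratory genes (17.8 against 7.06 FPKM). The value of Esrra is uncertain, because its listed interval holds 1 other protein-coding gene whole. Tfam, which packages mitochondrial DNA, was listed at 12.4 against 9.23 FPKM and Nrf1 at 6.75 against 5.40 FPKM. The coactivator genes Ppargc1a and Ppargc1b were below the minimum, at 0.099 against 0.212 FPKM and 0.166 against 0.498 FPKM. Of 8 genes of other routes that feed ubiquinone 6 were compared and none passed the limit, with Etfb, an electron carrier of fatty acid oxidation, at 222 against 386 FPKM. The 13 mitochondrially encoded subunits were not analysed here, so each complex is described by its nuclear part alone.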

How the data were processed

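RNA from 2 biological replicates each of Nutlin-3a and DMSO was sequenced; per the submitters' processing notes, TopHat2 2.0.11 and the build mm10 were used. The authors' deposited table gave FPKM as 1 value per transcript and group; which quantifier was used, how replicates were combined and each library's depth is not given in the sources used here, so no test, SD or counting interval was possible. A further pair of deposited columns held log2 of the same FPKM and was not used. The prefixes NUT and DSM were taken to mean Nutlin-3a and vehicle. FPKM was summed per symbol, 1 was added, and the log2 ratio was taken at a mean of at least 1 FPKM. The limit was 2-fold. Roles were assigned by hand. Members, roles and lists were chosen with earlier results of these data known. Named were all members past the limit, catalytic cores, extremes per complex, isoforms, assembly factors and members at 0; other names are examples. GC content and length came from GENCODE M21 (all 101 members; 99.4% of genes compared), pseudogenes from BLAST 2.17.0, promoters from RefSeq. 1 item is not reported here.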

Additional observations from a re-analysis of the deposited data

How the results depend on the processing

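There were 13 alternatives: other pseudocounts, filters, scalings, limits, ways to combine transcripts, a GC correction (lowess), leaving out symbols whose interval holds another protein-coding gene whole, and, chosen after seeing the data, leaving out symbols that share a listed interval. The 3 members at least 2-fold higher numbered 3 under all of them except a 1.5-fold limit, which gave 6 higher and 12 lower (17.8% and 15.2% of all genes). The count of 1 lower became 3 with a pseudocount of 0.1 or with plain FPKM ratios, and 2 after centring on the median or after the GC correction. The added genes were Sdha in each of these and Cox7a1 with the first 2 settings. Counts of all genes past the 2-fold limit rose in both directions with a pseudocount of 0.1 and fell in both with a pseudocount of 5. The GC correction moved the median of complex III, the same for its structural subunits, to 0.18, and that of F1 to -0.24; under either way of leaving out symbols the F1 median was -0.33. The cause was not tested. Among single members, 8 of 96 changed the sign of their log2 ratio after the GC correction and 5 after centring. No paired analysis was possible because the columns hold no value per library, and leaving out a replicate was not run for the same reason.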
